A study of Rattus norvegicus with 22 samples.

Results

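The genes described here encode enzymes that conjugate foreign and endogenous compounds in liver: the glutathione transferases (Gst and Mgst symbols) and the UDP-glucuronosyltransferases of families 1 and 2 (Ugt symbols). Members were all genes whose only symbol in the platform annotation begins with Gsta, Gstm, Gstp, Gstt, Gsto, Gstk, Gstz, Mgst, Ugt1 or Ugt2, with the probe set of highest mean standing for a gene. This gave 34 of 18166 genes, of which 26 are glutathione transferases and 8 are glucuronosyltransferases. The RefSeq gene table holds 50 protein-coding genes with such symbols, and the other 16 were not analysed here as single genes. All 8 glucuronosyltransferases belong to UGT2A or UGT2B.

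Livers came from female Crl:CD(SD) rats, an outbred Sprague-Dawley stock, labelled as 12 weeks old. The vehicle group (n = 12) received 1 intraperitoneal injection of the formulation without the compound, and the labels give no time for it. The treated group (n = 10) received 50 mg/kg GSK932121A, an inhibitor of complex III of the mitochondrial respiratory chain per the title, and these livers were taken after 5 hours. Another 2 treated rats were dropped by the submitters for low plasma exposure. RNA from each rat's median lobe went onto 1 array, and the arrays had median log2 values of 4.73 to 4.85. The number of arrays limits the precision, and a whole lobe holds several cell types, so fewer cells of a type and less RNA per cell cannot be told apart.

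Glutathione transferases couple the tripeptide glutathione to electrophilic compounds and make them water-soluble. The soluble enzymes are dimers grouped in classes named by Greek letters, while the microsomal enzymes sit in membranes and belong to a separate protein family. Glucuronosyltransferases sit in the endoplasmic reticulum and transfer glucuronic acid from UDP-glucuronic acid to bilirubin, steroids, bile acids and drugs. Liver is a main site of both reactions, and genes of both classes are known targets of xenobiotic receptors and, in part, of the oxidant-responsive factor NRF2.

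Between treated and vehicle livers, 4 of 26 glutathione transferases fell, 1 rose, and 1 of 8 glucuronosyltransferases fell. The genes that fell were Gsta1, Gsta4 and Gsta6 of the alpha class, Gstp3 of the pi class, and Ugt2b35. The gene that rose was Gstm3 of the mu class, whose vehicle level is too dim for a fold to be given, and the falls lay between 1.25-fold and 1.46-fold. The threshold was an adjusted p of 0.05 in limma, a linear model with moderated variances, with Benjamini-Hochberg adjustment over all 18166 genes. Over all genes 12.4% passed, 5.31% upwards and 7.05% downwards. Among glutathione transferases 19.2% passed, 3.85% upwards and 15.4% downwards. The background rises when dim genes are left out: of 10410 genes with a mean of at least 5, 22.9% passed, against 5 of 20 glutathione transferases (25%) and 1 of 6 glucuronosyltransferases (16.7%), shares near the background. With 5 surrogate variables for hidden factors 3.32% of all genes passed, with 3 of 26 glutathione transferases and 0 of 8 glucuronosyltransferases. Without the treated replicates 14 and 18 the share was 9.52%, with 3 and 1 of these genes. Among glucuronosyltransferases 12.5% passed, which is 1 gene and a share near that of all genes, and 0 rose (limma), with 0 higher at an unadjusted p under 0.05 and 0 by the Wilcoxon rank sum test.

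Medians of both classes lay a little below 0. The median log2 difference, treated minus vehicle, was -0.15 over the glutathione transferases and -0.12 over the glucuronosyltransferases, against -0.01 over all genes. Differences below 0 were found for 20 of 26 and 6 of 8 genes, against 52.4% of all genes. With single arrays left out, the median of the glucuronosyltransferases ran from -0.25 (without GSK932121A replicate 17) to -0.07 (without vehicle replicate 5). It moved by over 1.5 times without vehicle replicate 3, 5, 6, 9, 10 or 12, or GSK932121A replicate 14, 17 or 18. With 5 surrogate variables it was 0.04, and that of the glutathione transferases -0.09. Log2 differences ran from -0.55 to 2.10 among glutathione transferases and from -0.32 to 0.17 among glucuronosyltransferases. The value of 2.10 is that of Gstm3, and the next highest glutathione transferase, Gsta2, was at 0.17 too. These figures describe the members, and the difference between the classes was not tested.

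**Figure D1:**
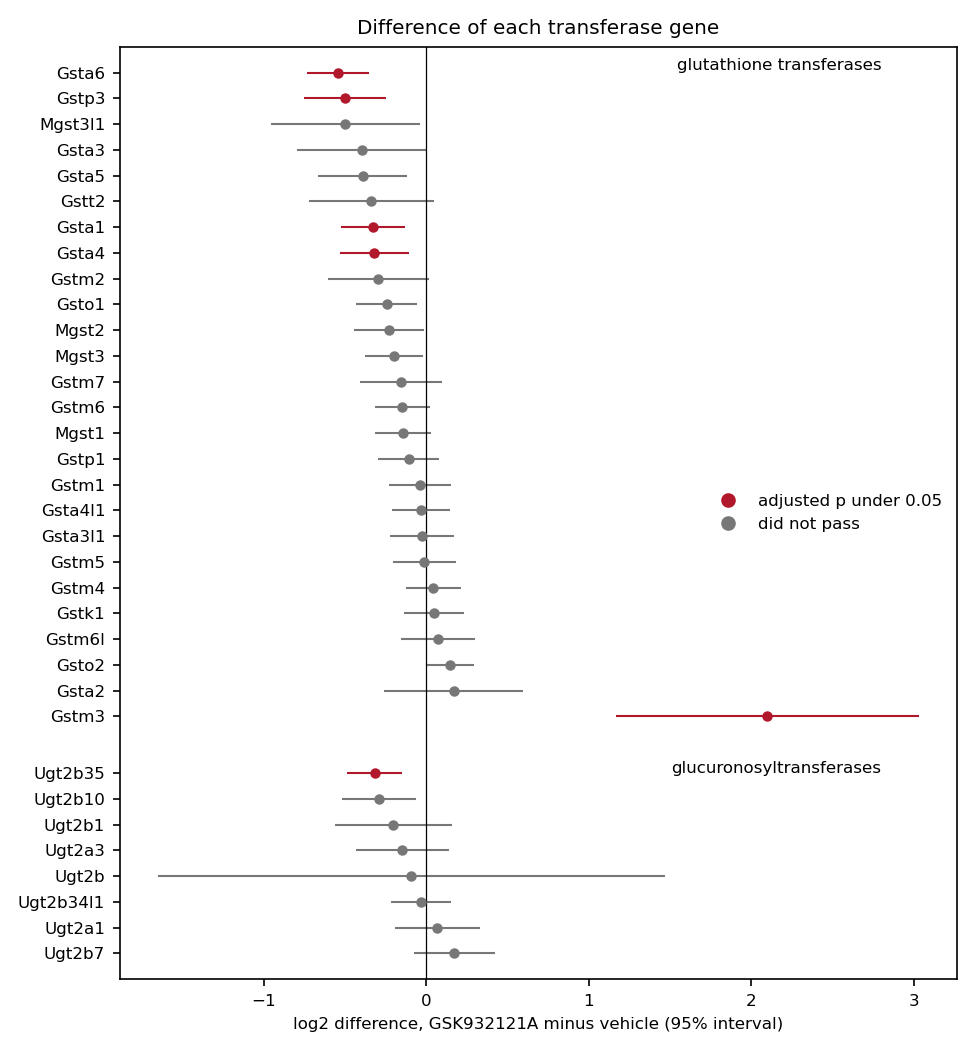
Log2 difference of each gene, GSK932121A minus vehicle, with its 95% interval from limma, for 26 glutathione transferases (top) and 8 glucuronosyltransferases (bottom). Most points lie a little left of 0, Gstm3 alone lies far to the right at 2.10, and the interval of Ugt2b is the widest among the glucuronosyltransferases, from -1.65 to 1.47.

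On single arrays, the shift of the glutathione transferases was small. The median over these 26 genes of the deviation from the vehicle mean lay between -0.17 and 0.25 on the vehicle arrays, and between -0.28 and -0.08 on the treated arrays. All 10 treated arrays and 7 of 12 vehicle arrays were below 0, and 9 treated arrays stayed within the vehicle range. The median over all genes was below 0 on 8 treated and 6 vehicle arrays, between -0.025 and 0.016. For the glucuronosyltransferases the same median lay between -0.23 and 0.24 on vehicle arrays and between -0.34 and 0.41 on treated arrays. Here 9 of 10 treated and 7 of 12 vehicle arrays were below 0, and the treated exception was replicate 17, with the highest value of all 22 arrays.

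**Figure D2:**
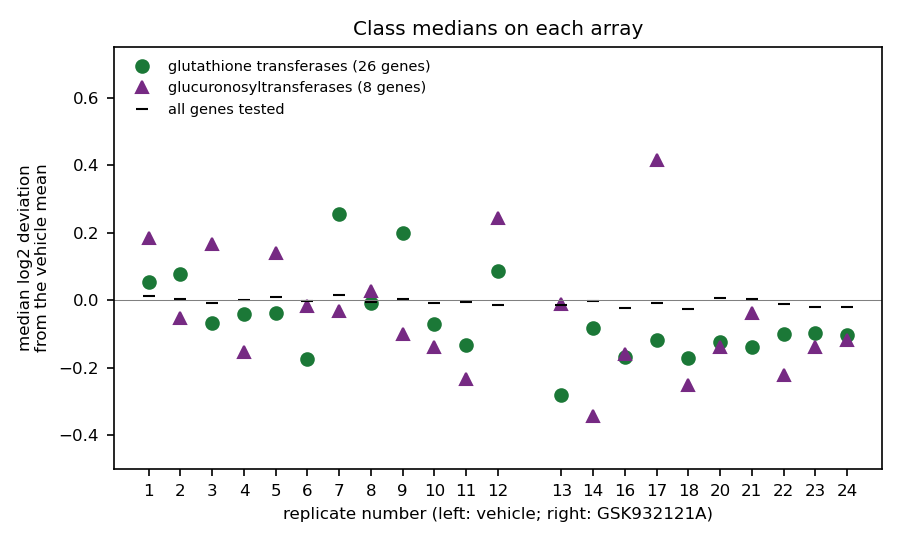
Median log2 deviation from the vehicle mean on each array (x axis: replicate number, vehicle left, GSK932121A right) for the 26 glutathione transferases (circles), the 8 glucuronosyltransferases (triangles) and all 18166 genes (dashes). Treated circles lie together between -0.28 and -0.08, while triangles are spread more widely in both groups.

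To show the DNA ahead of genes the results turn on, stretches before the start sites were taken from RefSeq (build GRCr8), of which 30 of 34 members have an entry. They are given for Gstm3, the gene that rose, for Gsta4, Gstp3 and Ugt2b35, which fell, and for Ugt2b, whose values split into separate levels. Gsta1 and Gsta6, which also fell, are not printed. Each stretch ends where the gene's outermost annotated transcript begins and is written 5′ to 3′ along the gene's strand. Capitals mark matches to the motifs described after the sequences.
Gstm3, chr2:198300743-198300917, minus strand: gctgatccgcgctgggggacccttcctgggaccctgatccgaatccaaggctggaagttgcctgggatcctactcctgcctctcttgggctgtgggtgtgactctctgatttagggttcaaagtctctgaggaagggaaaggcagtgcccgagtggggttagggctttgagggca
Gsta4, chr8:87947015-87947246, plus strand: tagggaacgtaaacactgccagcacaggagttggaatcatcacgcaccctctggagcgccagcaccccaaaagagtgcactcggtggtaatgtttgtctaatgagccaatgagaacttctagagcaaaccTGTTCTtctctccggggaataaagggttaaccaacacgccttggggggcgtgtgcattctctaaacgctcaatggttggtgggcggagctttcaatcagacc
Gstp3, chr1:210787706-210787934, minus strand: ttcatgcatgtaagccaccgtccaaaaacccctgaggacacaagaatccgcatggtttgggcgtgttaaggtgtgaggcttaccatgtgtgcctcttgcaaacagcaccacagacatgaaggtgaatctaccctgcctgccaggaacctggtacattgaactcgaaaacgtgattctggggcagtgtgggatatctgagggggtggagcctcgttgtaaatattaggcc
Ugt2b35, chr14:21208191-21208388, plus strand: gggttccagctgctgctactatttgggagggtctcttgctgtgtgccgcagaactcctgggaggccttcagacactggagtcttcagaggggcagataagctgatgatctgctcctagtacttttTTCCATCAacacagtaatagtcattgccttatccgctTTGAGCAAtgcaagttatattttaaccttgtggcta
Ugt2b, chr14:20985199-20985448, plus strand: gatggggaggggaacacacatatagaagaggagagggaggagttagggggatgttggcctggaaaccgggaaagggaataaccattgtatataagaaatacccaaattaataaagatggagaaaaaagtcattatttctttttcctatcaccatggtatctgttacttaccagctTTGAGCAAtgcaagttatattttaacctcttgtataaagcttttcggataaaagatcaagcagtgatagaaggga

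The motifs were searched on both strands of the 250 bases before each start site. For Gstm3, Gsta4, Gstp3 and Ugt2b35 these 250 bases ran on past the start of the outermost annotated transcript. The core of the antioxidant response element, TGACNNNGC, to which NRF2 binds, was found for 5 of 30 members and in 10.1% of all windows. All 5 were glutathione transferases (Gsta3, Gstm5, Gstm7, Gstp1 and Mgst3l1), and none of them passed the test between groups. A C/EBP site, TTGCNCAA, was found for Ugt2b and Ugt2b35 and in 2.29% of all windows, and in both it lies in a stretch of 31 identical bases. Both matches are printed as the reverse complement of these letters. The core of a C/EBP-ATF element, TGATGNAA, was found for Ugt2b35 alone (3.40% of all windows), and it is printed there as its reverse complement, ahead of the C/EBP site. The glucocorticoid half-site TGTTCT was found for 5 members, Gsta4, Gstm1, Gstm6, Mgst3 and Ugt2b35 (17.5% of all windows). The match of Ugt2b35 lies beyond the printed stretch, past the start of its outermost annotated transcript. The half-site of HNF1, GTTAAT, was found for Gsta3 and Ugt2a3 (6.45% of all windows). Of the genes that passed, Gsta1, Gsta6, Gstm3 and Gstp3 had no match to any of these motifs. The motifs do not overlap in the printed stretches. A match describes letters, and nothing follows about binding from its presence or absence.

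Alpha-class enzymes, among the main glutathione transferases of hepatocytes, also reduce lipid hydroperoxides and bind bilirubin and haem. Of 8 measured alpha genes 3 fell and 0 rose (limma), with 0 higher at an unadjusted p under 0.05 and 0 by the Wilcoxon test. Lower were 4 at an unadjusted p under 0.05, and 2 by the Wilcoxon test. Over all genes 7.05% fell, and among those with a mean of at least 5, 22.9% passed in either direction. The alpha class was not tested against these shares. Log2 values of Gsta6 were 6.48 (lowest), 6.76 (median) and 7.02 (highest) on vehicle arrays and 5.79, 6.24 and 6.56 on treated arrays. Thus 8 of 10 treated arrays lay below every vehicle array. The log2 difference was -0.55 ± 0.09 (SE), a 1.46-fold fall and the smallest adjusted p of all members, 0.000203 (limma).

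Gsta1 encodes the subunit long known as Yc1. Its log2 values were 10.30, 10.65 and 11.17 (lowest, median, highest) on vehicle arrays and 9.93, 10.40 and 10.69 on treated arrays. The groups overlapped widely, with 2 treated arrays below the lowest vehicle array. The log2 difference of Gsta1 was -0.33 ± 0.10 (SE), a 1.25-fold fall (limma, adjusted p = 0.0227). This call was lost without the treated replicates 14 and 18 (adjusted p = 0.0843) and with 5 surrogate variables (0.619).

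Gsta4, whose product clears hydroxynonenal, an aldehyde formed from oxidised lipids, had log2 values of 7.27, 7.65 and 8.06 on vehicle arrays and 6.98, 7.34 and 7.70 on treated arrays (lowest, median, highest). Of the treated arrays 5 lay below the vehicle range and the others within it. The log2 difference was -0.32 ± 0.10 (SE), a 1.25-fold fall at an adjusted p of 0.0406 (limma). Gsta4 no longer passed on removal of any 1 of 12 arrays: vehicle replicates 1, 2, 4, 5, 7, 8 and 9 (adjusted p from 0.0502 to 0.0713) and GSK932121A replicates 13, 17, 18, 21 and 24 (0.0642 to 0.0795). Nor did it pass with median centring (0.0536), cyclic loess (0.0671), the Wilcoxon test (0.0925) or over all probe sets (0.0727).

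The other alpha genes did not pass. Gsta5 had log2 values of 6.03, 6.42 and 7.00 on vehicle arrays and 5.64, 6.07 and 6.70 on treated arrays, with 4 treated arrays below the vehicle range. Gsta5 differed by -0.39 ± 0.13 (SE; interval from -0.67 to -0.12; limma, adjusted p = 0.0523). It passed without vehicle replicate 6, 11 or 12 (adjusted p 0.0323 to 0.0415), without GSK932121A replicate 16 (0.0169) or 22 (0.0250), and where dim genes, under a mean of 5, were left out (0.0345). Gsta3, the subunit known as Yc2, had 6.15, 6.59 and 7.41 on vehicle arrays and 5.55, 6.47 and 7.12 on treated arrays, with 3 treated arrays below the vehicle range. Its difference was -0.40 ± 0.19 (SE; interval from -0.80 to 0.00; limma, adjusted p = 0.214). Gsta2 differed by 0.17, with an interval from -0.26 to 0.60, and its vehicle arrays alone spanned 5.17 to 6.95. Differences of Gsta3l1 and Gsta4l1 were -0.03 each, and their sign changed with the arrays used. Rat alpha genes are close paralogs whose symbols were exchanged over time (RefSeq lists Gsta3 and Gsta5 as older names of Gsta1), and probes can read the transcripts of a close paralog.

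**Figure D3:**
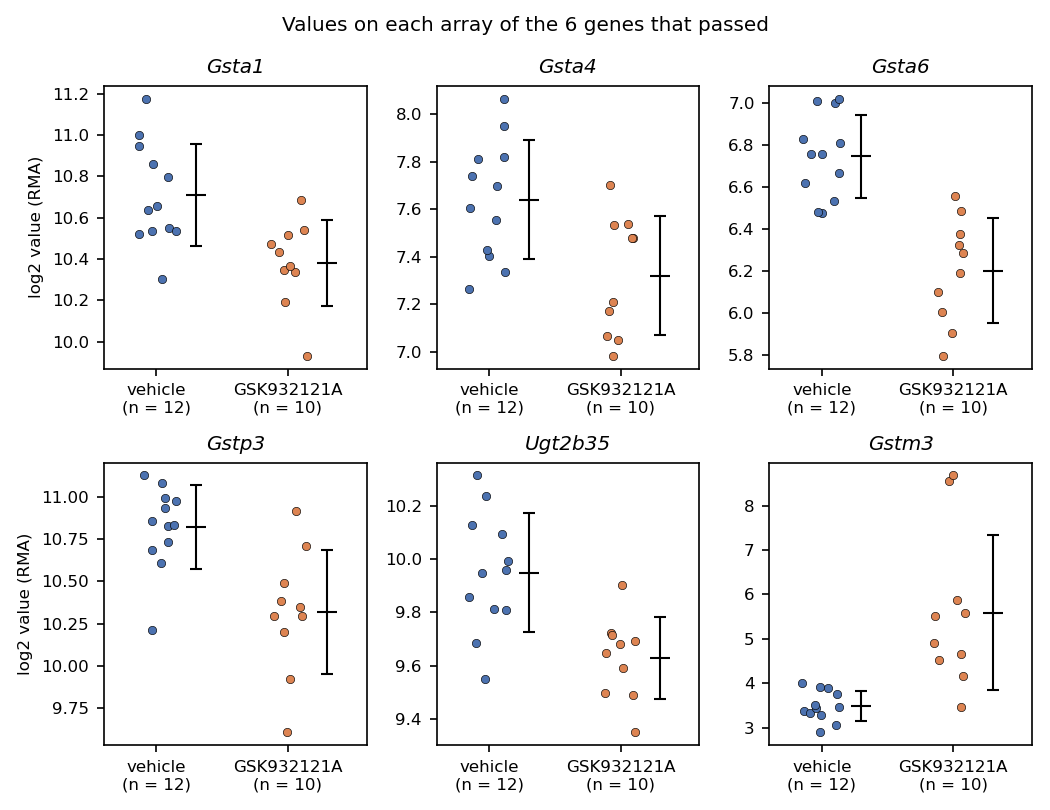
Log2 values on each array (points) with mean and SD (bars) for the 6 genes that passed, in vehicle (n = 12) and GSK932121A (n = 10) livers. Each panel has its own y axis. The 5 genes that fell overlap between groups, and Gstm3 has 9 of 10 treated arrays above every vehicle array and 2 of them above 8.

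Mu-class enzymes share their role with the alpha class and act on many epoxides and quinones. Gstm3 rose while the other measured mu genes did not pass. On vehicle arrays Gstm3 had log2 values of 2.90, 3.46 and 4.00 (lowest, median, highest), all below the lowest array median of 4.73. The files hold no detection calls, and a level this dim gives only a bound on what was there. On treated arrays it had 3.47, 5.21 and 8.68, and 9 of 10 lay above every vehicle array. The log2 difference of the signals was 2.10 ± 0.45 (SE; limma, adjusted p = 0.00227), and no fold is given over the dim vehicle level.

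The rise of Gstm3 was uneven between animals. Treated arrays had an SD of 1.74 and vehicle arrays one of 0.34, a ratio of 5.09. Treated replicates 14 and 18 reached 8.55 and 8.68, the next array stood at 5.88, and replicate 20 stood at 3.47, inside the vehicle range. Without replicates 14 and 18 the log2 difference was 1.34 and the adjusted p 0.000414 (limma). With 5 surrogate variables, which accounted for 45.5% of the variance of group, the difference was 0.64 and did not pass (adjusted p = 0.26). The filter at a mean of 5 removes Gstm3, so that 0 glutathione transferases rose in either setting.

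In the RefSeq table the mu genes lie on chromosome 2 in the order Gstm5, Gstm6l, Gstm7, Gstm6, Gstm3l1, Gstm3, Gstm2, Gstm1 and Gstm4. Of these, Gstm3l1, next to Gstm3, was not measured as a single gene. RefSeq also lists Gstm3l1 and Gstm4 as other names of Gstm3, and Gstm3 as another name of Gstm5 and Gstm7. As in the alpha class, probes can read the transcripts of a close paralog. Of the 7 measured mu genes other than Gstm3, 0 passed in limma, 0 had an unadjusted p under 0.05 and 0 passed the Wilcoxon test. Their log2 differences ran from -0.30 (Gstm2) to 0.07 (Gstm6l). Gstm2, next to Gstm3 in that order, had values of 9.66, 10.39 and 10.76 on vehicle arrays and 9.12, 9.96 and 10.69 on treated arrays, with 3 treated arrays below the vehicle range. It differed by -0.30 ± 0.15 (SE; interval from -0.61 to 0.02; limma, adjusted p = 0.242). The intervals of Gstm1 and Gstm4, at -0.04 and 0.04, ran from -0.23 to 0.15 and from -0.13 to 0.21. Those of Gstm5, Gstm6 and Gstm7 were centred on -0.01, -0.15 and -0.16, and Gstm6 and Gstm6l stayed below the array median on all 22 arrays.

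In the pi class, Gstp3 fell. Its log2 values were 10.21, 10.84 and 11.13 (lowest, median, highest) on vehicle arrays and 9.61, 10.32 and 10.92 on treated arrays. Only 3 treated arrays lay below the vehicle range, whose lower end is the single vehicle replicate 5. The log2 difference was -0.50 ± 0.12 (SE), a 1.42-fold fall (limma, adjusted p = 0.00624), and it passed in every alternative run, with adjusted p up to 0.0242. Gstp1 differed by -0.11, with an interval from -0.30 to 0.08, and did not pass.

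Of the remaining soluble classes no gene passed. Gstt2 (theta) ran from 8.80 to 10.35 in vehicle and from 8.87 to 10.00 in treated livers, all within the vehicle range, and differed by -0.34 with an interval from -0.72 to 0.05. Omega enzymes act as thiol transferases and reduce dehydroascorbate: Gsto1 differed by -0.24 (adjusted p = 0.088, limma) and Gsto2 by 0.15 (0.221). Gsto1 passed without vehicle replicate 10 (0.0384) and without GSK932121A replicate 21 (0.0479). Gstk1, the kappa enzyme of mitochondria and peroxisomes, had 9.95, 10.28 and 10.78 on vehicle arrays and 10.17, 10.35 and 10.62 on treated arrays, with every treated array inside the vehicle range. It differed by 0.05 ± 0.09 (SE; interval from -0.14 to 0.23; limma, adjusted p = 0.824).

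Microsomal transferases showed differences of 1 sign, none of which passed. Mgst1, the membrane-bound transferase of the endoplasmic reticulum and outer mitochondrial membrane, differed by -0.14, Mgst2 by -0.23, Mgst3 by -0.20 and Mgst3l1 by -0.50. Of these 4, 0 passed in limma, 3 had an unadjusted p under 0.05, and 0 passed the Wilcoxon test. Mgst3l1 had log2 values of 4.83, 6.05 and 7.20 on vehicle arrays and 4.81, 5.65 and 5.86 on treated arrays, with 1 treated array below the vehicle range. Its difference was -0.50 ± 0.22 (SE; interval from -0.96 to -0.04; limma, adjusted p = 0.166). Mgst1 had 12.53, 13.03 and 13.20 on vehicle arrays and 12.55, 12.92 and 12.97 on treated arrays, and no treated array left the vehicle range. Its difference was -0.14 ± 0.08 (SE; interval from -0.32 to 0.03; limma, adjusted p = 0.313).

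Among the UGT2B enzymes, which conjugate steroids, bile acids and drugs, Ugt2b35 fell. Its log2 values were 9.55, 9.95 and 10.31 (lowest, median, highest) on vehicle arrays and 9.35, 9.67 and 9.90 on treated arrays. The groups overlapped, with 3 treated arrays below the lowest vehicle array. The log2 difference was -0.32 ± 0.08 (SE), a 1.25-fold fall (limma, adjusted p = 0.011). With 5 surrogate variables Ugt2b35 did not pass (adjusted p = 0.388).

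Of the others, Ugt2b10 came nearest to a call. Its log2 values were 9.95, 10.27 and 10.71 on vehicle arrays and 9.43, 10.00 and 10.53 on treated arrays, with 5 treated arrays below the vehicle range. It differed by -0.29 ± 0.11 (SE; interval from -0.52 to -0.06; limma, adjusted p = 0.0906) and passed without GSK932121A replicate 16 (0.0276), where 2 glucuronosyltransferases passed in place of 1. Ugt2b1 had 8.24, 9.24 and 10.01 on vehicle arrays and 8.50, 8.97 and 9.80 on treated arrays, all treated values within the vehicle range, and differed by -0.20 ± 0.18 (SE; interval from -0.56 to 0.16; limma, adjusted p = 0.534). Ugt2b34l1 had 10.52, 10.80 and 11.10 on vehicle arrays and 10.39, 10.80 and 11.17 on treated arrays, with 2 treated arrays below the vehicle range and 1 above it. Its difference was -0.03 ± 0.09 (SE; interval from -0.22 to 0.15; limma, adjusted p = 0.882). Ugt2a3 differed by -0.15, with an interval from -0.43 to 0.14. Ugt2b7 had 2.58, 2.92 and 3.47 on vehicle arrays and 2.67, 3.09 and 3.89 on treated arrays, and differed by 0.17 ± 0.12 (SE; interval from -0.08 to 0.42; limma, adjusted p = 0.43). Ugt2b7 and Ugt2a1, the latter at a difference of 0.07, stayed below the array median on all 22 arrays.

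Ugt2b, listed in RefSeq also as Ugt2b2, had no shared level within either group. Its values formed a low and a high set of arrays with a gap of 2.14 log2 units between 5.04 and 7.18. In the vehicle group 5 arrays lay between 3.98 and 5.04 and 7 between 7.41 and 8.94. In the treated group 4 arrays lay between 4.06 and 4.22 and 6 between 7.18 and 8.75. Both sets thus held animals of both groups, 9 low and 13 high arrays in all. Of the low arrays 7 lay below their array median, so their level is only a bound. The low set was not 1 level, as vehicle replicates 9 and 10 stood above its other arrays, at 4.88 and 5.04.

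The SD of Ugt2b was 1.98 in vehicle and 2.04 in treated livers, against a median SD over the members of 0.247 and 0.275. The log2 difference between groups was -0.09, with an interval from -1.65 to 1.47, so neither a fall nor a rise inside that interval was detectable for this gene. Over all 18166 genes, 9 (0.0495%) had a gap at least as wide between neighbouring arrays in rank order, and the median widest gap was 0.172. Among the members only Gstm3 had a wider one, 2.67, which lies between 2 treated arrays and the rest. Ugt2b was singled out after its values were seen.

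**Figure D4:**
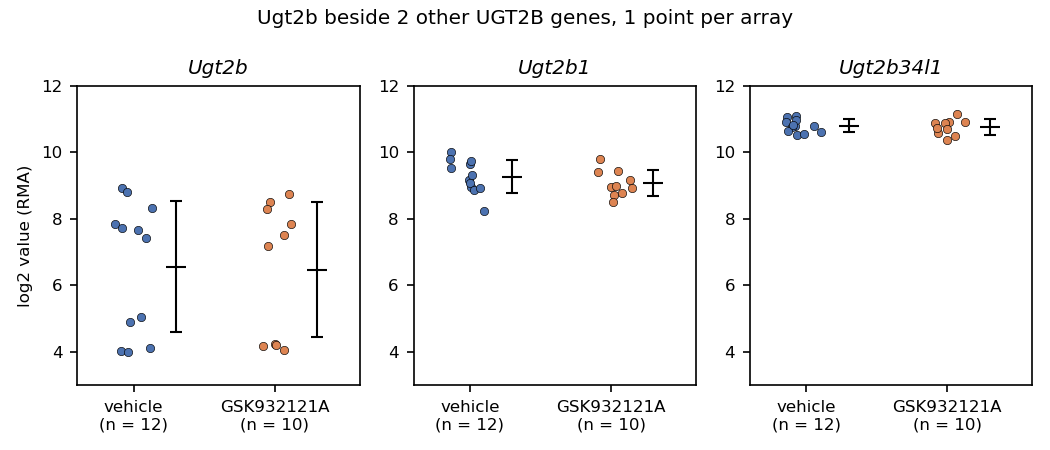
Log2 values on each array (points) with mean and SD (bars) for Ugt2b, Ugt2b1 and Ugt2b34l1 in vehicle (n = 12) and GSK932121A (n = 10) livers, all on 1 scale. Ugt2b falls into a low and a high set in both groups, with no array between 5.04 and 7.18, and the other UGT2B genes form single clouds.

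Some probe sets carry several symbols of these families and are no members, since they cannot be assigned to 1 gene. In a fit over all 36685 probe sets, of which 7.04% passed, 1 of these 5 passed. It is annotated to 8 UGT1A genes, the family that conjugates bilirubin and whose transcripts share their last exons. Its log2 values were 8.86, 9.13 and 9.38 (lowest, median, highest) on vehicle arrays and 8.45, 8.75 and 8.98 on treated arrays. Of the treated arrays 7 lay below the vehicle range, and the log2 difference was -0.35 ± 0.07 (SE), a 1.27-fold fall (limma, adjusted p = 0.00279). The others, a pair of theta and a pair of UGT2B probe sets, differed by -0.11, -0.13, -0.16 and -0.39 and did not pass.

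Within each group, no relation among the 6 genes that passed held after adjustment over 30 relations. With 10 or 12 arrays even an r of 0.69 did not pass, so a lack of relation does not follow. Of the 15 pairs taken in each group, 0 passed by Pearson's r and 0 by Spearman's rho after Benjamini-Hochberg adjustment (permutation tests, two-sided), and 5 had an unadjusted permutation p under 0.05. Gsta1 and Ugt2b35 had r = 0.66 and rho = 0.65 among vehicle arrays (permutation p = 0.0220 and 0.0264, adjusted 0.211 and 0.564, n = 12). Among treated arrays they had r = 0.69 and rho = 0.56 (permutation p = 0.0287 and 0.0956, adjusted 0.211 and 0.564, n = 10). Without the 2 arrays farthest from the median of Gsta1, r was 0.50 and 0.54. The others of the 5 were Gsta1 with Gsta6 (r = 0.62) and Gsta6 with Ugt2b35 (r = 0.66) among vehicle arrays. Among treated arrays it was Gsta1 with Gstm3 (r = -0.67, and -0.32 without the 2 farthest arrays).

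The cofactors and partners of these enzymes were examined next, with the same fit and threshold. Beside the counts of this and the later lists stand 5.31% of all genes rising and 7.05% falling. Of genes with a mean of at least 5, 22.9% passed in either direction. The lists were chosen with earlier results known, and their counts were not tested against these shares. Of 16 measured genes of glutathione synthesis, recycling and breakdown 3 rose and 2 fell, with a median log2 difference of -0.09. Chac1, which degrades glutathione, rose 12.7-fold (limma, adjusted p = 3.61e-07), and the sulfur-route genes Cbs and Mat1a rose 1.39-fold and 1.19-fold. Gclm, the modifier subunit of the rate-limiting ligase of glutathione synthesis, fell 1.32-fold, and Cth, which makes cysteine, 1.27-fold. Of 7 genes listed around the mercapturic acid route, which trims glutathione conjugates, Kyat1 rose 1.56-fold. Nat8, the N-acetyltransferase of cysteine conjugates, and Anpep fell 1.53-fold and 1.18-fold. Not each listed gene encodes a trimming step, and a change of the route itself was not tested.

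For glucuronidation, 2 of 7 genes of UDP-glucuronic acid supply and deconjugation rose, Pgm2 by 1.21-fold and Uxs1, which uses up UDP-glucuronic acid, by 1.19-fold, and the median difference was -0.03. Ugdh, which makes UDP-glucuronic acid, differed by -0.16 with an interval from -0.34 to 0.02. Among 7 export pumps listed as conjugate exporters, Abcb1b rose 1.67-fold and Abcc6 fell 1.17-fold. Abcc1, Abcc3, Abcc4, Abcg2 and Abcb1a did not pass, and which of the listed pumps export conjugates was not tested. Abcb1b was dim, below the array median on 6 of 22 arrays, and only 1 treated array lay above the vehicle range. Of 17 other conjugating enzymes 2 rose and 4 fell: Nnmt, nicotinamide N-methyltransferase, rose 3.00-fold and Papss2, which makes the sulfate donor, 1.25-fold. The falls there were those of Sult2a2 (6.84-fold), Sult2a1 (5.67-fold), Glyat, glycine N-acyltransferase (1.64-fold), and Baat, which conjugates bile acids (1.30-fold). Both Sult2a falls were uneven between animals. Treated values of Sult2a2 ran from 1.86 to 8.65, with 6 of 10 arrays below the vehicle range. As Sult2a2 was below the array median on 6 arrays, its fold is uncertain. Treated values of Sult2a1 ran from 7.62 to 12.58, with 7 of 10 arrays below the vehicle range. Among 12 related proteins outside the rule, such as Hpgds and Ugt3a1, only Clic4 passed, with a 1.25-fold fall.

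Regulators of the transferases changed in both directions. Of 19 measured transcription factors and partners 6 rose and 4 fell, against 5.31% and 7.05% of all genes. Among genes with a mean of at least 5, 22.9% passed, and the list was not tested against these shares. Maff (2.66-fold), Bach1, a repressor at antioxidant response elements (2.26-fold), and Cebpb (2.09-fold) rose, and so did Nr1i2, the xenobiotic receptor PXR (1.47-fold), Mafk (1.41-fold) and Nr3c1, the glucocorticoid receptor (log2 difference 0.58). Nfe2l2, which encodes NRF2, fell 1.47-fold (limma, adjusted p = 9.57e-05), with 9 of 10 treated arrays below every vehicle array. Foxa2 fell 1.46-fold, Nfe2l1 1.15-fold and Nr1i3, the receptor CAR, by 0.58 on the log2 scale. Bach1 and Cebpb had all 10 treated arrays above every vehicle array.

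Of 21 NRF2 targets outside the transferases Hmox1, haem oxygenase, rose 2.22-fold, Osgin1 fell 2.90-fold and Gclm fell as given, and the median difference was -0.09. Nqo1 and Txnrd1 differed by -0.04 and 0.03, with intervals from -0.45 to 0.36 and from -0.13 to 0.19. Of 16 targets of CAR and PXR, Por, the reductase that serves cytochromes P450, rose 2.18-fold, while Cyp3a73 and Cyp3a18 fell 2.21-fold and 1.53-fold, and the median difference was -0.18. Of 5 targets of the aryl hydrocarbon receptor 0 passed in limma, 0 had an unadjusted p under 0.05 and 0 passed the Wilcoxon test. Over all genes 12.4% passed, and 22.9% of those with a mean of at least 5. Each list holds genes that other signals regulate too.

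Markers of hepatocytes, the cells that hold most of these enzymes, were at high and even levels. The mean log2 level of 7 such markers lay between 11.73 and 11.85 on vehicle and between 11.76 and 11.87 on treated arrays, and 1 of them, Cps1, rose. Of 7 periportal hepatocyte genes Sds, Arg1, Hal and Gls2 rose and Cdh1 fell (mean level 9.38 to 10.37 in vehicle and 10.09 to 10.69 in treated), and of 6 pericentral genes Axin2 fell (7.31 to 7.94 and 7.29 to 7.74). Of 9 Kupffer cell and 4 endothelial markers 1 each rose, Cd163 and Lyve1 (mean levels 7.64 to 8.38 and 7.63 to 7.94 in vehicle, 7.79 to 8.32 and 7.77 to 8.10 in treated). Of the markers of stellate cells (8), cholangiocytes (6), neutrophils (6), lymphocytes (7) and erythroid cells (3), 0 passed in limma and 0 in the Wilcoxon test, with 1 stellate and 3 lymphocyte markers at an unadjusted p under 0.05, and their mean levels overlapped between the groups. For comparison, 12.4% of all genes passed, and 22.9% of those with a mean of at least 5. The part of these markers in the differences of the transferases was not tested.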

How the data were processed

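The authors deposited log2 values made with RMA (background correction, normalisation between arrays, probe set summary), as the submitters' processing notes name it. Software, version and probe set definition: not given in the sources used here. Normalisation between arrays hides any shift common to all genes, and differences of dim probe sets are compressed.

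The platform annotation pairs 18511 of 36685 probe sets with 1 symbol, 575 with several and 17599 with none. The highest-mean probe set stood for each of 18166 genes. Genes were compared with limma 3.58.1 (R 4.3.3) in a fit of group alone with empirical Bayes moderation, and intervals cover 95%. The labels give no batch, and the groups share 0 replicate numbers. Correlations used 100000 permutations. Python 3.11.15 with numpy 2.4.6, pandas 2.3.3, scipy 1.17.1 and matplotlib 3.10.9 did the rest.

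Alternatives were median centring, quantile and cyclic loess normalisation, a filter at a mean log2 value of 5, mean probe sets, trend and robust settings, array weights, the Wilcoxon rank sum test, 5 surrogate variables (limma's wsva) and each array left out. A fit over all probe sets and one without GSK932121A replicates 14 and 18 were chosen after seeing the data. The members and lists were chosen with earlier results of these data known. Full values are given for every member that passed and, per class, for the 3 others with the largest difference and the 3 with the highest mean. From each list up to 4 genes that passed were named by size, with the largest opposite change. List genes beyond these, which complete a count, and Ugdh, Nqo1 and Txnrd1 were chosen after their values were seen. Probes can read close paralogs. Each array is 1 rat. On simulated data for 18166 genes in this comparison, only 67, 67 and 66 genes were changed, by 1.2-fold, 1.5-fold and 2-fold. The fit recovered 20.9%, 92.5% and 95.5% of them, with 8 unchanged genes called. In the measured data 2244 genes passed, and recovery with that many changed genes was not tested.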

Additional observations from a re-analysis of the deposited data

Results flagged for a closer look

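In 4 of 34 members, 1 treated array stood apart from the other 9 by more than 0.466 of the group's range, the 95% critical value of Dixon's test for 10 samples. Chance alone marks about 1 in 20 groups. The vehicle groups were not searched in this way. Gsta2 was lowest on GSK932121A replicate 24, at 5.22 with the next array at 6.17. Gsta4l1 was lowest on replicate 14, at 4.42 with the next at 4.70. Gstk1 was highest on replicate 18, at 10.62 with the next at 10.40. Gstm6l was highest on replicate 17, at 4.45 with the next at 3.91. None of these genes passed the comparison of the groups.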

How the results depend on the processing

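Of 5 glutathione transferases called, 3 were called with 5 surrogate variables (Gsta4, Gsta6 and Gstp3) and 3 without GSK932121A replicates 14 and 18 (Gsta6, Gstm3 and Gstp3), and 4 to 6 with single arrays left out. Of glucuronosyltransferases 0 were called with 5 surrogate variables and 1 to 2 with single arrays left out. Over all genes the share called also changed, from 12.4% to 3.32% with 5 surrogate variables and 9.52% without replicates 14 and 18, so the lower counts are no result about the members. With the filter at a mean of 5, which removes Gstm3, 5 glutathione transferases fell and 0 rose. The median difference of glucuronosyltransferases was 0.0446 with 5 surrogate variables. It ran from -0.25 to -0.07 with single arrays left out, and that of the glutathione transferases from -0.19 to -0.11. The cause of these changes was not tested. No paired analysis was possible because the groups share no replicate numbers.

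The differences that changed sign belong to genes that passed neither before nor after. With 5 surrogate variables they became -0.10 (Gsta2), 0.0107 (Gsta3), 0.0365 (Gsta3l1), 0.11 (Gsta4l1), 0.0025 (Gstm7), 0.0157 (Gstp1), 1.09 (Ugt2b), 0.13 (Ugt2b1) and 0.0524 (Ugt2b34l1). Without replicates 14 and 18 they became 0.0211 (Gsta3l1), 0.0204 (Gsta4l1), -0.0024 (Gstm4), 0.50 (Ugt2b) and 0.0365 (Ugt2b34l1). Median centring gave 0.002 for Gstm5 and cyclic loess 0.0115 for Ugt2b34l1. With single arrays left out the ranges were -0.0854 to 0.0055 (Gsta3l1), -0.0666 to 0.0084 (Gsta4l1), -0.0854 to 0.0079 (Gstm1), -0.0572 to 0.0431 (Gstm5), -0.0151 to 0.11 (Gstm6l), -0.35 to 0.18 (Ugt2b) and -0.0772 to 0.0099 (Ugt2b34l1).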
